A study of Mus musculus with 6 samples.

Results

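Aminoacyl-tRNA synthetases join each amino acid to its tRNA and so set the supply of substrate for every ribosome. The genes were taken as the rows of the deposited array table whose single gene symbol is that of a synthetase (1 letter for the amino acid followed by ars, with a 2 for the mitochondrial form, or Eprs, Farsa and Farsb) or of a scaffold protein (Aimp1, Aimp2, Eef1e1), with the brightest row kept for each symbol. This gave 34 genes of the 22180 symbols that had a row of their own: 15 enzymes of the cytosol, 15 of mitochondria, 2 (Gars and Kars) that serve both compartments, and 2 scaffold genes. Aars and Aimp2 shared their row with a neighbouring gene, Dars was named on no row, and the methionine enzyme is listed as Mars1, which the rule does not match; these were left out, as was Pars2, whose letter the rule does not hold.

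The tissue was colonic mucosa of normal appearance beside tumours, from male BALB/c mice, with 4 wild-type animals (WT, Mthfd1S+/+) and 2 heterozygotes (Mthfd1S+/-), and 1 Affymetrix Mouse Gene 2.0 ST array per mouse. Mthfd1 encodes a cytosolic folate enzyme, and Mthfd1S+/- animals are deficient in its synthetase activity. Both genotypes came from stock backcrossed 10 generations or more, and received azoxymethane, a colon carcinogen, at 6 mg/kg, then 3% dextran sulfate sodium, which injures the colonic epithelium, for 2 cycles of 4 days at weeks 1 and 4, and were killed at week 13. The labels give an age of 7 months, and the protocol 3 months at injection. The question is how the genotypes differ in mucosal transcripts when all animals have had the carcinogen and colitis treatment; no untreated animals were analysed here.

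Most cells keep separate synthetases for the cytosol and for mitochondria, both encoded in the nucleus, while the glycine and lysine enzymes come from single genes with products for both places. Several cytosolic enzymes are held in the multisynthetase complex, which is built on 3 scaffold proteins. When amino acids run short, the kinase GCN2 (gene Eif2ak4) leads to translation of the transcription factor ATF4, which binds a composite element in the promoters of amino acid transporters, biosynthetic enzymes and many cytosolic synthetases. The tryptophan enzyme Wars is also known as a target of interferon-gamma.

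The letters of that composite element were searched in the promoters, and the matches are shown because they include the genes with the largest positive differences. RefSeq promoter windows of the assembly GRCm38.p6, from 250 bases before to 50 bases after a start site, were matched by gene identifier for 26 of the 34 genes (28 windows); Cars, Hars, Hars2, Lars, Nars, Rars, Vars and Wars had none. On either strand, TGATGCAA was present in 3 of 28 windows, those of Iars, Tars and Yars, and in 0.895% of all 32851 windows. With the sixth base open (TGATGNAA, which includes every TGATGCAA) it was present in 4 of 28, with Gars as the addition, and in 3.97% of all windows. The 30 bases around each match are given 5′ to 3′ along the gene's strand, with the matched letters in capitals; 3 of the 4 read as the reverse complement.
Iars (chr13:49682126-49682155, plus strand, capitals at positions 8 to 15 after the start site): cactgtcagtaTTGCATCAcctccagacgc
Yars (chr4:129189895-129189924, plus strand, positions 4 to 11 after the start site): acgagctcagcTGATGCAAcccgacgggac
Tars (chr15:11399655-11399684, minus strand, positions -15 to -8): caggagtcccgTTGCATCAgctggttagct
Gars (chr6:55037960-55037989, plus strand, positions -30 to -23): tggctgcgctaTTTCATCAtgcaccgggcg

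Of these 4, the strict letters stand within 15 bases of the start site in Iars, Yars and Tars. Of the other motifs searched on both strands, the E-box CACGTG was present in 4 of 28 windows (Ears2, Farsb, Iars and Tars) and in 7.15% of all, and the interferon gamma-activated site TTCNNNGAA in 3 of 28 (Eef1e1, Kars and Nars2) and in 8.30% of all. The interferon-stimulated response element was present in 1 window, that of Qars, and in 3.44% of all. A match is a string of letters and does not show binding.

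The array values are log2 signals per transcript cluster (the probes that the array sums into 1 gene), and array medians ran from 5.485 to 5.532. All 13 epithelial markers (such as Epcam, Vil1 and Car1) had mean levels of 8.83 to 12.2. Smooth muscle markers were present too, at 8.09 to 12.6. Mthfd1 itself averaged 7.63 ± 0.10 over the WT mice (SD, n = 4) and 7.79 ± 0.23 over the Mthfd1S+/- mice (SD, n = 2; adjusted p 0.890, limma). No label states whether the allele alters the transcript level, so this does not check the genotypes. Genotypes were compared with limma over all 23521 clusters with 1 symbol, and p-values were adjusted over all of them with a threshold of 0.05; 0 clusters passed, and 1363 (5.79%) were at an unadjusted p under 0.05. For single genes, an exact permutation over the 15 ways of dividing the mice into 4 and 2 can give no p below 0.0667. In bulk tissue, fewer cells of a type and less RNA per cell cannot be told apart.

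None of the 34 genes passed the adjusted threshold in limma (smallest adjusted p 0.837), and 1, Iars, was at an unadjusted p under 0.05, with the Mthfd1S+/- mice higher; 3.36% of all clusters were higher and 2.44% lower at that p. Log2 fold changes, as Mthfd1S+/- minus WT, ran from -0.11 (Nars2) to 0.19 (Iars), with a median of -0.015 against 0.012 for all clusters. Of the 34, 12 were above 0 and 22 below, where 54.0% of all clusters were above. Centring each array on its median, which shifts every gene alike, gave 20 above and 14 below (63.1% of all clusters above), and quantile normalization gave 17 and 17 (61.4%). The number above 0 was also 21 without the first WT mouse and 23 with the smooth muscle mean in the fit. The standard errors (SE) were 0.078 to 0.20. The 95% interval lay inside 1.5-fold in either direction (0.58 on the log2 scale) for 34 of 34 genes, as it did for 91.3% of all clusters and for 93.1% of the 9484 clusters in the same range of mean levels. The lowest bound was -0.47 and the highest 0.45, both those of Eef1e1. The Eef1e1 interval reached beyond 1.5-fold with the replicate number as a block, with unmoderated least squares and with a smooth muscle covariate. Each of these gave 33 of 34 genes inside. Without the second Mthfd1S+/- mouse the interval lay inside 1.5-fold for 32 of 34, with Eef1e1 and Yars2 as the exceptions.

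**Figure D1:**
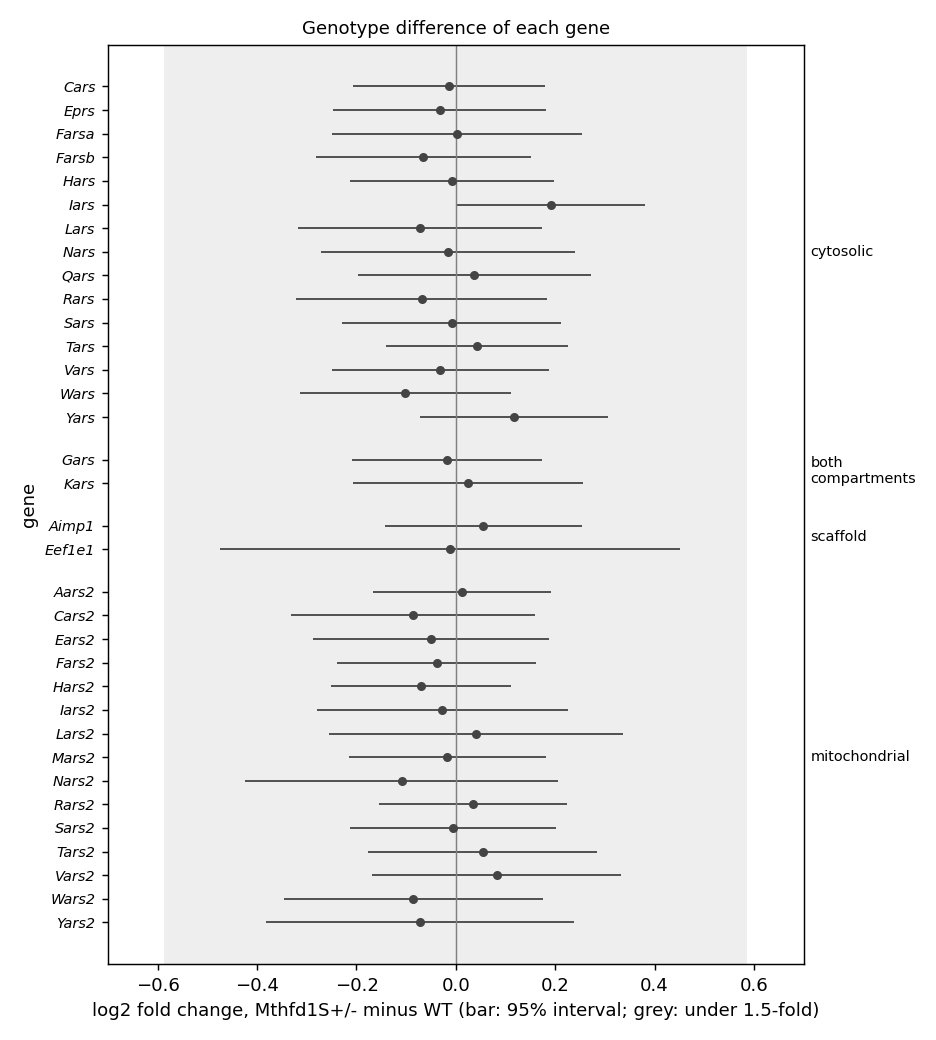
Log2 fold change (x axis, Mthfd1S+/- minus WT) of each of the 34 genes (y axis, by compartment) with its 95% interval from limma; the grey band marks changes under 1.5-fold. All 34 intervals lie inside the band, and that of Iars alone does not include 0.

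Among the cytosolic enzymes, Iars, which charges isoleucine tRNA and belongs to the multisynthetase complex, had the largest difference of the whole family. Its log2 level was 9.02, 8.92, 8.98 and 8.90 in WT mice, against 9.12 and 9.17 in Mthfd1S+/- mice. Both Mthfd1S+/- mice were above all 4 WT mice. The log2 fold change was 0.19 ± 0.082 (SE), and limma gave an unadjusted p of 0.0472 (0.837 after adjustment), beside 0.0667 from the exact permutation test. It stayed between 0.16 and 0.22 when single mice were left out, and its unadjusted p was over 0.05 without any one of WT mice 2, 3 and 4 or either Mthfd1S+/- mouse.

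Yars, the tyrosine enzyme, read 8.40, 8.38, 8.45 and 8.36 in WT and 8.57 and 8.46 in Mthfd1S+/- mice. The groups did not overlap, although the third WT mouse and the second Mthfd1S+/- mouse differed by less than 0.01. The log2 fold change was 0.12 ± 0.082 (SE; adjusted p 0.891, limma), and 0.063 without the first Mthfd1S+/- mouse. Iars and Yars were the only cytosolic enzymes with groups that did not overlap; among all clusters 7.96% did not overlap with the Mthfd1S+/- mice above.

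Tars, the threonine enzyme and the remaining gene with the strict element letters, had 0.042 ± 0.080 (SE) on the log2 fold change scale. Its mean was 9.06 ± 0.039 over WT mice (SD, n = 4) and 9.11 ± 0.047 over Mthfd1S+/- mice (SD, n = 2), and the groups overlapped. Gars, with the open form of the letters, had -0.017. No test was made of a relation between the letters and the values, and these 4 promoters are shown with the values known.

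Wars, which charges tryptophan tRNA, had the lowest log2 fold change of the cytosolic enzymes. Its log2 level was 10.23, 10.05, 10.08 and 10.02 in WT mice, against 9.95 and 10.04 in Mthfd1S+/- mice. The first WT mouse was highest and the second Mthfd1S+/- mouse lay among the other WT mice. The log2 fold change was -0.10 ± 0.093 (SE; adjusted p 0.914, limma). Of 18 measured interferon-gamma targets, 13 were below 0 (median log2 fold change -0.057), with 0 at an unadjusted p under 0.05 in either direction. The peptide transporter gene Tap1 had -0.30 ± 0.13, the GTPase genes Gbp4 and Irgm2 -0.34 ± 0.26 and -0.18 ± 0.14, and the chemokine gene Cxcl9 0.23 ± 0.15. The mean of these 18 genes, each centred over the 6 mice, was 0.13, 0.011, 0.029 and -0.11 in WT and -0.020 and -0.047 in Mthfd1S+/- mice. Wars and these targets were both highest in the first WT mouse, as the synthetases as a whole were, but Wars was lowest in the first Mthfd1S+/- mouse and the targets in the fourth WT mouse.

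The other enzymes of the complex were close to 0. Eprs, a fused glutamate and proline enzyme, had a log2 fold change of -0.032 ± 0.094 (SE), the glutamine enzyme Qars 0.037 ± 0.102 and the arginine enzyme Rars -0.069 ± 0.11. Lars, the leucine enzyme that also acts as a leucine sensor for mTORC1, had -0.072 ± 0.107. Its WT mice lay close together, at 7.92, 7.87, 7.87 and 7.85, and the Mthfd1S+/- mice stood on either side of them, at 7.98 and 7.63. The value was 0.10 without the second Mthfd1S+/- mouse and -0.25 without the first.

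The cytosolic enzymes outside the complex, 10 in all, had a median log2 fold change of -0.012. The asparagine enzyme Nars had -0.016, the serine enzyme Sars -0.0088, the histidine enzyme Hars -0.0079, the cysteine enzyme Cars -0.015 and the valine enzyme Vars -0.031. Phenylalanine is charged by a tetramer of Farsa and Farsb chains, which had 0.0026 and -0.066. All of these had groups that overlapped. Mars1, the methionine enzyme outside the rule, had 0.019 ± 0.11 (SE).

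Gars, for glycine, and Kars, for lysine, also gave near-equal means in the genotypes. Gars read 9.82, 9.76, 9.72 and 9.74 in WT and 9.81 and 9.68 in Mthfd1S+/- mice, a log2 fold change of -0.017 ± 0.083 (SE). Kars, a member of the complex, read 9.08, 9.09, 8.92 and 8.96 in WT and 9.16 and 8.92 in Mthfd1S+/- mice, a difference of 0.025 ± 0.10. The second Mthfd1S+/- mouse was the lowest of all 6 in both genes, while the first lay within the WT range for Gars and above all WT mice for Kars.

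Of the scaffold genes, Aimp1, which joins the arginine enzyme to the complex, was steady and Eef1e1 was not. Aimp1 read 7.64, 7.58, 7.47 and 7.61 in WT and 7.66 and 7.60 in Mthfd1S+/- mice, a log2 fold change of 0.055 ± 0.087 (SE). A second, dimmer Aimp1 cluster, at 5.48 ± 0.058 over WT mice (SD, n = 4) and 5.62 ± 0.040 over Mthfd1S+/- mice (SD, n = 2), gave 0.14 ± 0.083 with groups that did not overlap (adjusted p 0.869, limma). Eef1e1, also called AIMP3, read 8.78, 8.55, 8.51 and 8.10 in WT and 8.20 and 8.75 in Mthfd1S+/- mice. Both genotypes thus spanned more than 0.5 on the log2 scale. It had the widest WT spread of the family (SD 0.28, n = 4) and a genotype difference of -0.012 ± 0.20, which became 0.26 with the first Mthfd1S+/- mouse left out and -0.28 with the second left out.

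The mitochondrial enzymes, which charge tRNAs for the few proteins made inside the organelle, had a median log2 fold change of -0.028, with 5 above 0 and 10 below. None was at an unadjusted p under 0.05, and the smallest adjusted p was 0.938 in limma. The value farthest from 0 was that of the asparagine enzyme Nars2. It read 6.84, 7.02, 6.50 and 6.72 in WT and 6.67 and 6.65 in Mthfd1S+/- mice. Both Mthfd1S+/- mice lay within the WT range, and the log2 fold change was -0.11 ± 0.14 (SE). Its dimmer second cluster, with means of 4.996 and 4.93, gave -0.068 ± 0.11.

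The cysteine enzyme Cars2 read 7.56, 7.66, 7.34 and 7.41 in WT and 7.39 and 7.42 in Mthfd1S+/- mice, with a log2 fold change of -0.087 ± 0.107 (SE). The tryptophan enzyme Wars2 read 6.50, 6.36, 6.47 and 6.47 in WT and 6.55 and 6.18 in Mthfd1S+/- mice, with -0.086 ± 0.11. The Mthfd1S+/- mice of Cars2 lay between the WT mice, while those of Wars2 were the highest and the lowest of all 6. Without the second Mthfd1S+/- mouse the Wars2 value was 0.10, and without the first it was -0.27.

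Hars2, the histidine enzyme, had the tightest WT values of the family, at 6.999, 7.002, 7.002 and 7.018 (SD 0.0087, n = 4). The Mthfd1S+/- mice read 6.99 and 6.89, both below all WT mice, by less than 0.02 in the first. The log2 fold change was -0.070 ± 0.079 (SE; adjusted p 0.938, limma; exact permutation p 0.0667), and -0.020 without the second Mthfd1S+/- mouse. It was the only mitochondrial enzyme with groups that did not overlap, where 6.04% of all clusters did not overlap with the Mthfd1S+/- mice below. In the family as a whole this made 3 of 34 (Iars, Yars and Hars2), against 14.0% of all clusters.

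For the other mitochondrial enzymes the log2 fold changes were 0.082 for Vars2 (valine), 0.054 for Tars2 (threonine), 0.040 for Lars2 (leucine), 0.035 for Rars2 (arginine) and 0.013 for Aars2 (alanine). Values below 0 were those of Yars2 (tyrosine, -0.072), Ears2 (glutamate, -0.050), Fars2 (phenylalanine, -0.039), Iars2 (isoleucine, -0.028), Mars2 (methionine, -0.017) and Sars2 (serine, -0.0056). Iars2 and Lars2 stood out for the distance between the Mthfd1S+/- mice. Iars2 read 8.40, 8.40, 8.35 and 8.36 in WT against 8.53 and 8.16, and Lars2 read 7.43, 7.36, 7.27 and 7.28 against 7.61 and 7.15. In both the first Mthfd1S+/- mouse was the highest and the second the lowest of the 6 mice.

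**Figure D2:**
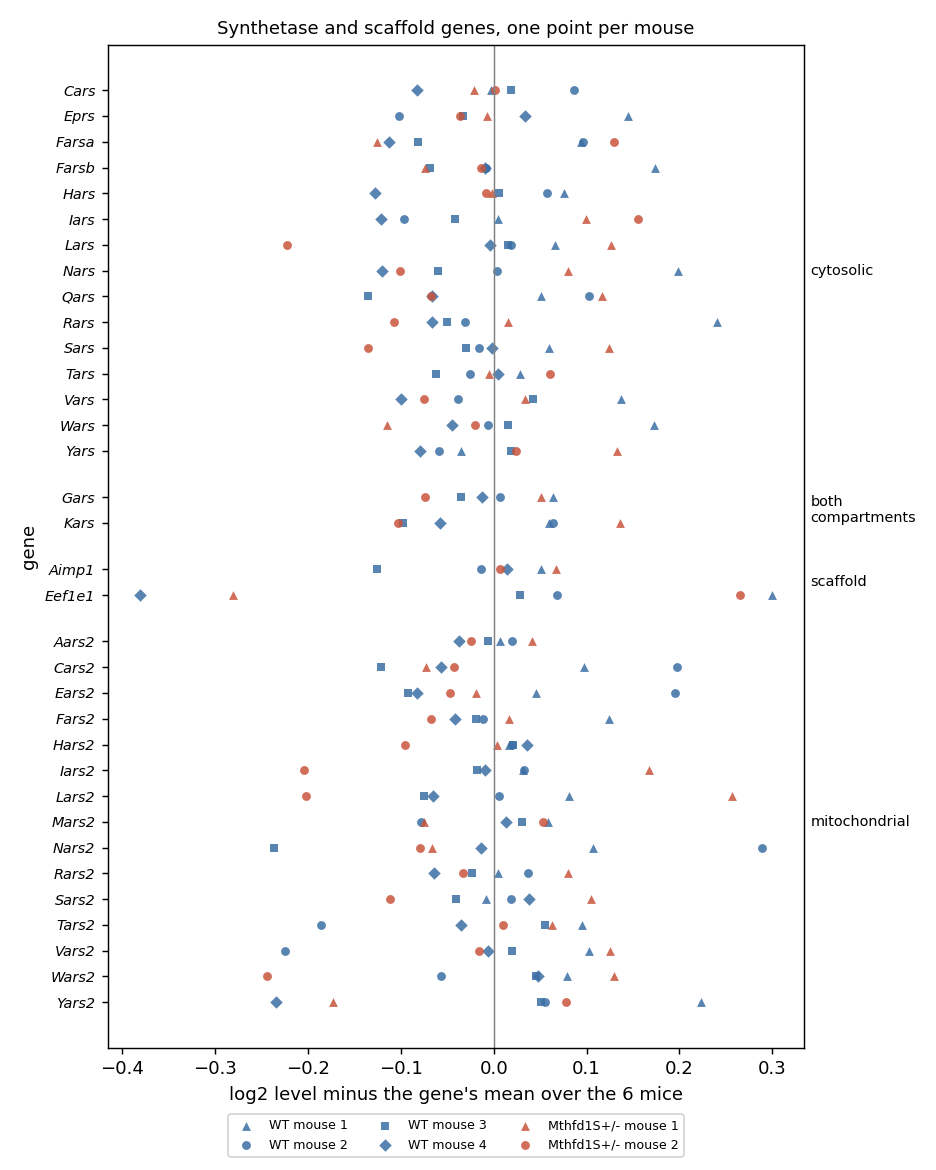
Log2 level of each gene minus its own mean over the 6 mice (x axis), with 1 point per mouse, for the 34 genes by compartment (y axis); blue marks WT and red Mthfd1S+/- mice. The red points are the highest and the lowest of the row in 8 of 34 genes, such as Lars, Iars2, Lars2 and Wars2, and both lie within the blue ones in 12; the triangles of the first mouse of each genotype lie mostly to the right.

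Cytosolic and mitochondrial enzymes were then compared within each mouse. Levels of different genes cannot be set against each other on an array, so each gene was first centred on its mean over the 6 mice. For WT mice 1 to 4 the cytosolic enzymes averaged 0.094, -0.0014, -0.030 and -0.060, and for both Mthfd1S+/- mice 0.025 and -0.028. The mitochondrial enzymes averaged 0.071, 0.021, -0.027 and -0.034 in WT and 0.039 and -0.069 in Mthfd1S+/- mice. Both compartments were highest in the first WT mouse, and in each genotype the first mouse was above the rest.

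The difference, cytosolic minus mitochondrial, was 0.023, -0.022, -0.0024 and -0.026 in WT mice and -0.013 and 0.041 in Mthfd1S+/- mice. WT averaged -0.0069 ± 0.022 (SD, n = 4) and Mthfd1S+/- mice 0.014 ± 0.038 (SD, n = 2). The genotypes differed by 0.021, less than the spread between mice of either genotype, and the first Mthfd1S+/- mouse lay within the WT range. Without the second Mthfd1S+/- mouse the difference between genotypes was -0.0065, so even its sign rested on 1 animal.

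**Figure D3:**
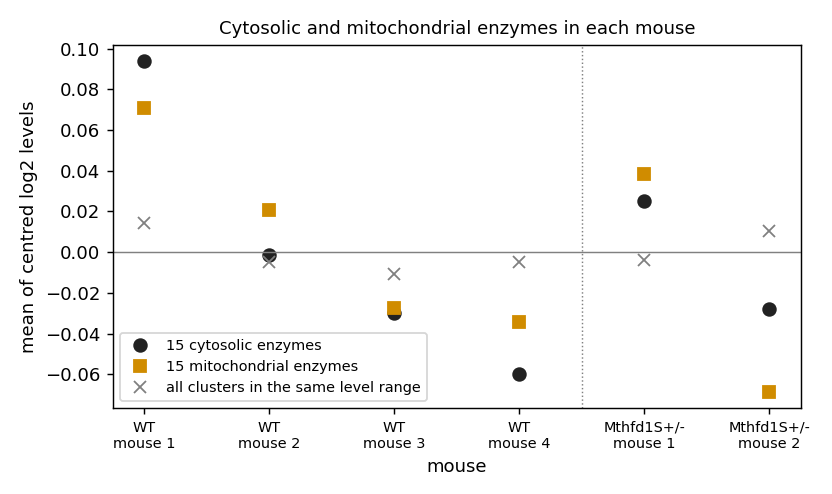
Mean of the centred log2 levels (y axis) of the 15 cytosolic and 15 mitochondrial enzymes in each mouse (x axis), with the mean of the 9484 clusters of the same level range. The compartments stay within 0.041 of each other in every mouse, while their common level runs from about 0.09 in the first WT mouse to below 0 in WT mice 3 and 4 and the second Mthfd1S+/- mouse.

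Cytosolic and mitochondrial enzymes were paired for the 11 amino acids whose enzyme symbols differ only by a final 2. Both enzymes were also measured for phenylalanine (Farsa, Farsb and Fars2), glutamate (Eprs and Ears2) and methionine (Mars1 and Mars2). These were not paired. The cytosolic enzyme had the higher log2 fold change in 5 pairs and the mitochondrial enzyme in 6. Isoleucine had the widest gap, with 0.19 for Iars and -0.028 for Iars2, followed by tyrosine with 0.12 for Yars and -0.072 for Yars2. Each gap rested on 1 animal: the isoleucine values were 0.16 and 0.16 without the second Mthfd1S+/- mouse, and the tyrosine values 0.063 and 0.054 without the first. Leucine had -0.072 for Lars and 0.040 for Lars2. It was the only pair of the 11 in which the within-mouse difference did not overlap between genotypes (exact permutation p 0.133). Among single clusters, 14.0% did not overlap. For tryptophan (-0.10 and -0.086), serine (-0.0088 and -0.0056) and threonine (0.042 and 0.054) the 2 enzymes had near-equal values.

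**Figure D4:**
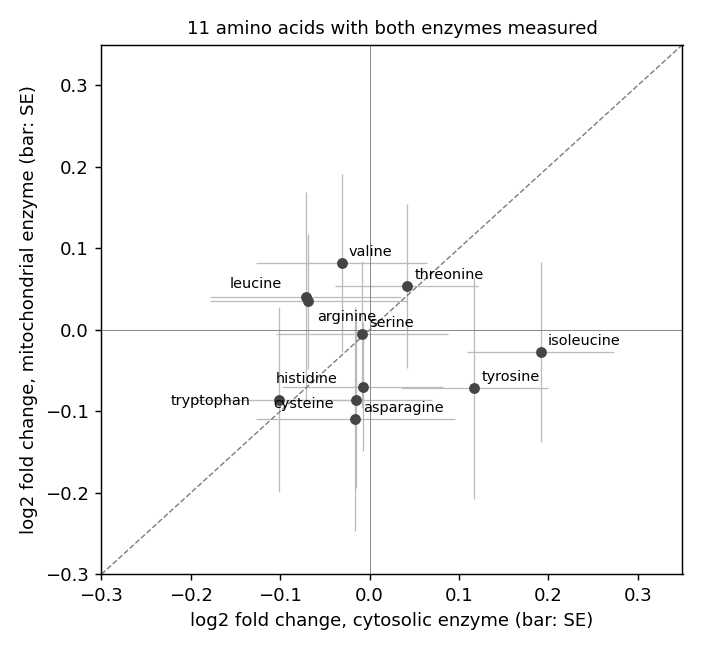
Log2 fold change (Mthfd1S+/- minus WT) of the cytosolic enzyme (x axis) and of the mitochondrial enzyme (y axis) for the 11 paired amino acids, with the SE as bars and equality as a dashed line. The points gather around 0, with isoleucine and tyrosine farthest to the right.

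Mice differed in the level of many of the genes at once. The first mouse of each genotype was the highest of the 6 in 26 of 34 genes (13 each for the first WT and the first Mthfd1S+/- mouse), where these mice were the highest in 37.4% of all clusters and in 37.8% of those of the same level range. The first WT mouse was above the mean of the other WT mice in 31 of 34 genes (median difference 0.091; 50.4% of all clusters), and the first Mthfd1S+/- mouse was above the second in 24 of 34 (0.075; 52.9%). Both held in 22 of 34 genes, against 28.2% of all clusters. Other lists varied. The first Mthfd1S+/- mouse was above the second in 66.7% of the charging companions, of the tRNA processing genes and of the interferon-gamma targets. That share was 58.6% for the amino acid response, 28.6% for the delivery factors, and 0 for goblet cell, smooth muscle and fibroblast markers. The first WT mouse was the highest in 55.6% of the interferon-gamma targets, beside 38.2% of the 34 genes. This share was 16.7% for charging companions, 14.3% for delivery factors, 27.8% for tRNA processing and 10.3% for the amino acid response. The first mouse of each genotype carries the letter A in its identifier and the other 4 mice the letter B. The labels do not say what the letter stands for. With the letter as a covariate, 0 of the 34 genes were at an unadjusted p under 0.05 for genotype and Iars had 0.18 (adjusted p 0.659, limma). The Iars difference was 0.095 between the letter A mice and 0.24 between the letter B mice. Cytosolic minus mitochondrial gave -0.036 and 0.058 in the same order, so its sign differed between the letters.

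Markers of other cells also moved between mice. Smooth muscle markers had centred means of -0.15, -0.25, -0.014 and 0.12 in WT and -0.058 and 0.35 in Mthfd1S+/- mice, with all 10 above 0 for genotype (median log2 fold change 0.23) and 0 at an unadjusted p under 0.05. They were highest in the second Mthfd1S+/- mouse, in which the mitochondrial enzymes were lowest. Fibroblast markers were above 0 in 8 of 8 (median 0.17), with 2 higher at an unadjusted p under 0.05. Of all clusters, 3.36% were higher and 2.44% lower at that p. Epithelial markers were below 0 in 11 of 13 (median -0.074). Their centred mean was -0.088 in the second Mthfd1S+/- mouse. Medians were -0.0063 for goblet cell and 0.0085 for T cell markers, with 0 at that p. Plasma cell markers had a median of -0.16 and adipocyte markers of -0.71, with 2 of 8 lower at that p in each. Both Mthfd1S+/- mice were below all WT mice for 3 adipocyte, 1 plasma cell and 1 epithelial marker (6.04% of all clusters). They were above all WT mice for 2 fibroblast markers (7.96% of all clusters). For red blood cells 1 marker was measured (0.13). When the smooth muscle mean entered the fit, the median of the mitochondrial enzymes was 0.039 in place of -0.028 and Iars had 0.19. The part of cell makeup in the levels of single genes was not tested.

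Other genes of tRNA charging were measured beside the family, in lists chosen with earlier results of these data known. Of 12 charging companions, 5 were above 0 and 7 below, with 0 at an unadjusted p under 0.05. The mitochondrial proline enzyme Pars2 read 5.56, 5.56, 5.64 and 5.64 in WT and 5.49 and 5.31 in Mthfd1S+/- mice, below all WT mice, with a log2 fold change of -0.20 ± 0.088 (SE; adjusted p 0.837, limma). Tarsl2, a second threonine enzyme, had 0.094 ± 0.080, with both Mthfd1S+/- mice above all WT mice. Of the 12 companions, groups did not overlap for 1 below (Pars2) and 1 above (Tarsl2), where 14.0% of all clusters did not overlap. Sepsecs, which makes selenocysteine on its tRNA, had -0.12 ± 0.097, and Mtfmt, which formylates the mitochondrial initiator with a folate-borne formyl group, -0.13 ± 0.11.

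Delivery factors, which carry charged tRNAs to the ribosome or assist those carriers, had 6 of 7 above 0 (median log2 fold change 0.053). Again 0 were at an unadjusted p under 0.05. The mitochondrial factors Tsfm and Tufm had 0.14 ± 0.086 and 0.14 ± 0.093 (SE), and the cytosolic Eef1a2 and Eef1d 0.12 ± 0.18 and 0.053 ± 0.085. Of 18 genes of tRNA processing, 1 was above and 1 below 0 at an unadjusted p under 0.05, where 3.36% of all clusters were higher and 2.44% lower. Tsen15, of the tRNA splicing endonuclease, had 0.26 ± 0.105, and Rpp21, of RNase P, -0.27 ± 0.106, both with an adjusted p of 0.837 in limma. Rpp25 had 0.17 ± 0.091 and Elac2, which trims tRNA 3′ ends, -0.17 ± 0.11.

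The amino acid response, which ATF4 drives, had 17 of 29 genes above 0 and 12 below (median log2 fold change 0.050), with 1 at an unadjusted p under 0.05, where 5.79% of all clusters were. That gene was the stress-induced factor Atf3, which read 8.63, 8.63, 8.53 and 8.13 in WT and 8.14 and 7.40 in Mthfd1S+/- mice. The fourth WT mouse and the first Mthfd1S+/- mouse were nearly equal, and the log2 fold change was -0.71 ± 0.21 (SE; adjusted p 0.837, limma). The transporter genes Slc1a4 and Slc7a5, which import neutral amino acids, had 0.23 ± 0.12 and 0.13 ± 0.087, and Ddit4, an inhibitor of mTORC1, had 0.30 ± 0.20. Slc7a5 was the only one of the 29 with groups that did not overlap, where 14.0% of all clusters did not.

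The SD of the synthetase genes over the 4 WT mice had a median of 0.079 and ran from 0.0087 (Hars2) to 0.28 (Eef1e1), against a median of 0.11 for all clusters and 0.098 for clusters of the same level range. It was below the median of all clusters in 25 of 34 genes, and below that of the same level range in 20 of 34. The lists of charging companions, delivery factors and tRNA processing had medians of 0.070, 0.065 and 0.072, each below that of the synthetases.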

How the data were processed

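Each of 6 mice gave 1 array. The deposited values are log2 signals per transcript cluster, which the authors summarised in Expression Console of Affymetrix (per the submitters' processing notes). Version, algorithm and build: not given in the sources used here. Log base 2 was judged from the range of values (1.06 to 13.5). The number of arrays limits the precision.

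Of 41345 clusters, 23521 had exactly 1 gene symbol in the platform table and were fitted with limma 3.58.1 in R 4.3.3 (lmFit, eBayes, no covariate, two-sided, 4 residual and 4.35 prior degrees of freedom) with Benjamini-Hochberg adjustment; 1814 had several symbols and 16010 none. The fit was also run on simulated arrays with planted changes, each larger than any difference found in the family. That run did not cover changes as small as those of the 34 genes. Groups came from the titles.

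Members and lists were chosen with earlier results of these data known. Every member is named; values in every mouse are given for the member under an unadjusted p of 0.05, the 6 largest changes, Wars, Gars, Kars and the scaffold genes. Others shown so (Lars, Lars2, Iars2, Hars2 and Atf3, Pars2) were chosen after their values were seen. From each companion list the 4 genes of smallest p are named. In all, 15 alternatives were run. Promoters came from RefSeq, GRCm38.p6.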

Additional observations from a re-analysis of the deposited data

Results flagged for a closer look

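The levels of Rars, the arginine enzyme, in WT mice were 9.47, 9.19, 9.18 and 9.16. The gap between the first mouse and the next was 0.884 of the whole range, above Dixon's 95% critical value for 4 samples. Of the 34 genes tested in this way, 1 passed, and chance passes about 1 in 20. Without that mouse the log2 fold change of Rars was 0.0035 in place of -0.069.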

How the results depend on the processing

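Under all 15 alternatives, unmoderated least squares among them, 0 clusters passed the adjusted threshold. The count of the 34 genes at an unadjusted p under 0.05, 1 as reported, was 0 over all rows, with the replicate block, with the identifier letter and with the smooth muscle covariate, and 0 to 2 with single mice left out (Lars and Wars2 without the first, Lars2 without the second Mthfd1S+/- mouse). The cytosolic median, -0.015 as reported, was -0.070 with the replicate block. The mitochondrial median, -0.028 as reported, was 0.039 with the smooth muscle covariate and ran from -0.072 to 0.046 with single mice left out. The count of all clusters at an unadjusted p under 0.05 was 1363 as reported, 675 without dim clusters, 2600 over all rows and 2331 with the replicate block. Signs changed in 13 of 34 genes with the smooth muscle covariate, 8 with median-centred arrays, 5 with arrays quantile normalized again, 5 with the replicate block, and 9 and 10 without the first WT and the second Mthfd1S+/- mouse. The first mice of both genotypes share a number and the letter A, and the second mice a number and the letter B. Correlations of their deviations from the group means were 0.12 and -0.044. With 2 Mthfd1S+/- mice the deviations are exact opposites (0.12 and -0.12 against the first WT mouse), so these correlations cannot show pairing. The cause of the shifts between alternatives was not tested.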
